A study of Mus musculus with 3 samples.

Results

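Retinoid genes were read on Affymetrix mouse genome arrays in the mouse mesenchymal cell line C3H10T1/2. The set comprises 9 genes of retinoid metabolism and response, namely Rbp4, Stra6, Aldh1a1, Aldh1a2, Aldh1a3, Crabp1, Crabp2, Rarb and Cyp26b1. They were found by gene symbol, as every probe set annotated with 1 of these symbols alone, which gave 11 probe sets of 45101 and 9 genes of 18193. The first group was C3H10T1/2 cells labelled as control, with no overexpression named. The second had received Venus, a fluorescent protein, by retrovirus (C3H10T1/2-V, here Venus). The third had received Venus-Mkx (C3H10T1/2-VM, here Venus-Mkx), where Mkx is the homeobox transcription factor Mohawk. The virus was added in medium with puromycin, and all cells were grown in α-MEM with serum. The methods mention independent clones for stained cells only, and whether the array RNA came from a clone is not stated. Each group is 1 array, so no difference has a replicate check and no test was made.

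Retinol, or vitamin A, travels in blood bound to the carrier Rbp4 and enters cells through the receptor Stra6. Alcohol dehydrogenases and retinol dehydrogenases oxidize it to retinal, and Aldh1a1, Aldh1a2 and Aldh1a3 oxidize retinal to retinoic acid. Crabp1 and Crabp2 bind retinoic acid inside the cell. Rarb is a nuclear receptor of retinoic acid and at the same time a classical target gene, and Cyp26 enzymes degrade the acid. In mesenchymal tissues of the embryo, this pathway is known for patterning of the limb and of the axial skeleton.

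The arrays were checked against their labels first. Mkx read 6.88 on the log2 scale in the untransduced cells, 7.43 with Venus and 2.71 with Venus-Mkx, against the label. The position of its probe set relative to the vector insert is unknown, so this reading may not bear on the transgene, and whether the label itself is right was not tested. Every value of the third array is therefore a value of the array so labelled. All 7 mesenchymal markers stood above the floor on every array, as described below, whereas 4 of 5 macrophage, 3 of 4 endothelial and 3 of 4 epithelial markers stood below it on every array. The exceptions were Csf1r, with 4.45, 5.39 and 6.62, Tek, with 4.53, 4.02 and 5.95, and Epcam, with 6.74, 7.03 and 7.60. The summed level of each list, as log2, was 5.64, 6.13 and 6.97 for macrophages, 5.60, 5.34 and 6.45 for endothelium and 7.13, 7.39 and 7.80 for epithelium, and their part in the results was not tested. RNA of whole cultures was measured, so fewer cells of a type and less RNA per cell cannot be told apart.

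Values are log2 probe set values as deposited. The floor was the median of all values, 4.34, below which a value was not told from background. To be counted as higher or lower than the controls, a gene had to reach the floor on at least 1 array and differ at least 2-fold from each of them in the same direction. Deposited values repeat often, with the same value on all 3 arrays in 24.6% of probe sets. This share was 42.0% among probe sets below the floor on every array and 8.82% among the others.

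A classical retinoic acid response element lies in the Rarb promoter, and it is shown here because Rarb is both receptor and target in this pathway. RefSeq promoter windows of 300 bases, from 250 before to 50 after the annotated start, were at hand for 7 of the 9 members, in 12 windows of GRCm38.p6. A direct repeat with 5 bases between the hexamers (DR5) was searched on both strands, with hexamers of a purine, G, G or T, T, C or G, and A. It was found in 0.323% of all 32851 windows and, among the members, in the window of Rarb alone, 53 to 37 bases before the start at chr14:16575513-16575529. The repeats with 1 and 2 bases between the hexamers (DR1 and DR2), held by 0.609% and 0.472% of all windows, were in none of the members' windows. The letters TATAA, searched on both strands and held by 24.9% of windows, were in those of Rbp4 and Cyp26b1. In Rbp4, the member with the largest difference between the arrays as read, they lie 28 to 24 bases before the downstream start. The 80 bases before both starts, on the minus strand at chr14:16575477-16575556 for Rarb and chr19:38124812-38124891 for Rbp4, are printed 5′ to 3′ with the hexamers of the DR5 and the TATAA in capitals.
Rarb: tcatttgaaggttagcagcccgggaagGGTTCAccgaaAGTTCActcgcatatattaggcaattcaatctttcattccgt
Rbp4: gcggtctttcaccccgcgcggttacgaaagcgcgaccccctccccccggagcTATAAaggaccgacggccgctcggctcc
A match describes letters in these windows and is no evidence that a factor binds there.

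On the array labelled Venus-Mkx, 4 of the 9 members stood apart from both controls. Rbp4, Aldh1a1 and Crabp2 were counted as higher than both controls, 3 of 9 members against a background of 4.19% of all genes. Cyp26b1 was counted as lower, 1 of 9 against 3.28%. The members were chosen with earlier results of these data known, so these shares are no test of the set. Aldh1a3 was below both controls without reaching 2-fold from Venus, and Stra6, Aldh1a2, Crabp1 and Rarb were below the floor on all 3 arrays. Over all 9 members the median log2 difference from Venus was 0.00, as it was over all genes. The middle member is one of those below the floor on all 3 arrays, so this median does not show unchanged levels.

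**Figure D1:**
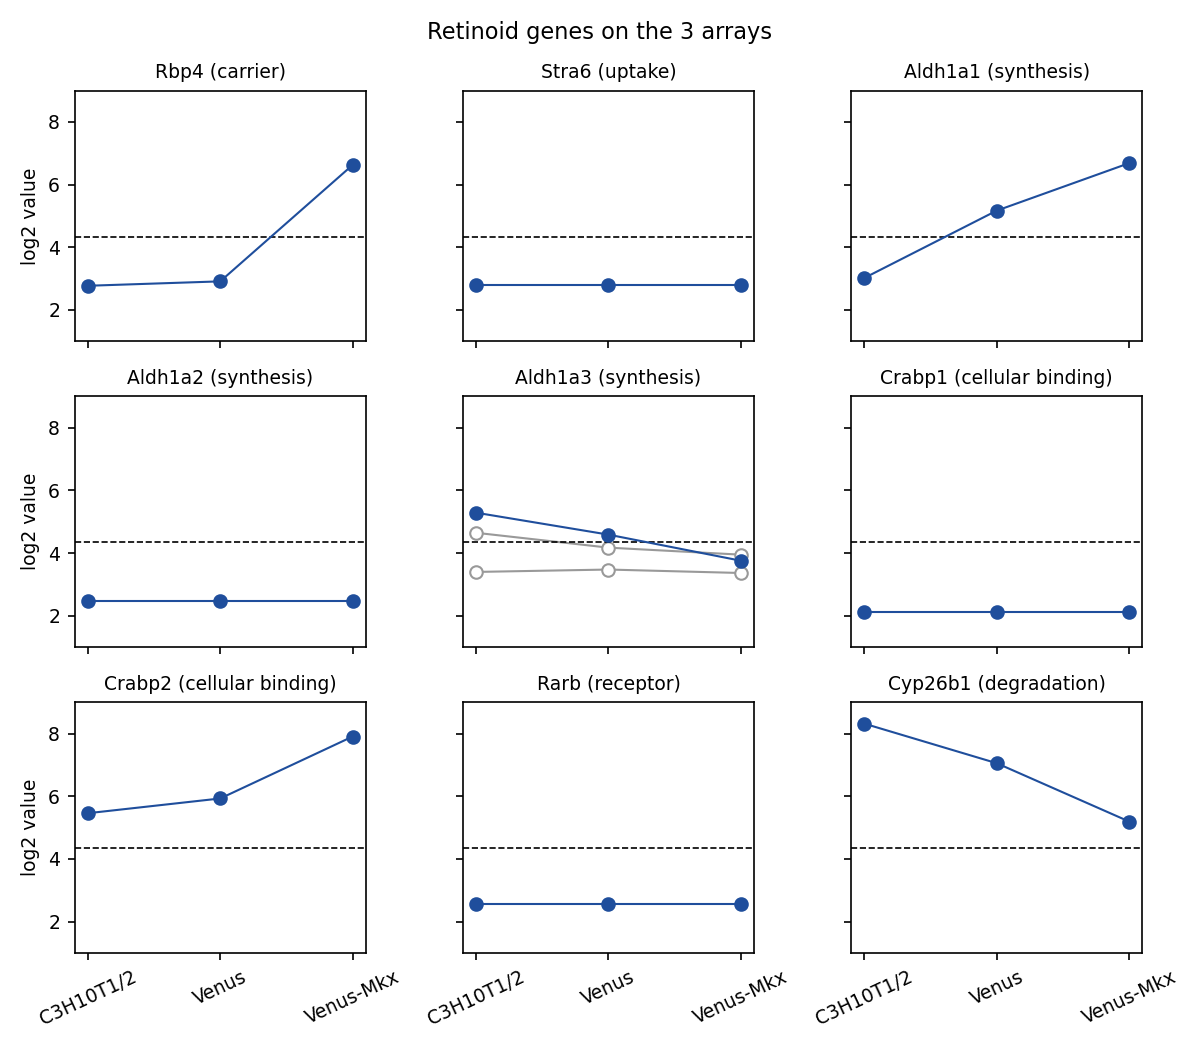
Log2 value (vertical axis) of each of the 9 retinoid genes on the C3H10T1/2, Venus and Venus-Mkx arrays (horizontal axis), 1 array per group. Filled points are the probe set used for the gene, open points other probe sets of Aldh1a3, lines only join points of 1 probe set, and the dashed line is the floor of 4.34. Rbp4, Aldh1a1 and Crabp2 are highest and Cyp26b1 is lowest on the Venus-Mkx array, while Stra6, Aldh1a2, Crabp1 and Rarb lie flat below the floor.

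Rbp4, the blood carrier of retinol, had log2 values of 2.77 in C3H10T1/2, 2.91 in Venus and 6.62 on the third array. It stood above the floor on the last array alone, so it entered the counts only through the array on which it was high. As read, the difference was 3.71 from Venus and 3.85 from C3H10T1/2. With the controls raised to the floor, Rbp4 was at least 4.86-fold higher than both. Stra6, the receptor that takes up retinol from Rbp4, held 2.81 on all 3 arrays.

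Aldh1a1, which makes retinoic acid from retinal, had values of 3.02 in C3H10T1/2, 5.17 in Venus and 6.68 on the Venus-Mkx array. The order of the arrays was therefore stepwise, with the untransduced cells below the floor. The difference of Venus-Mkx from Venus was 1.51, or 2.86-fold, and from C3H10T1/2 it was 3.66 as read. Venus already differed from C3H10T1/2 by 2.15 as read, but with the latter raised to the floor the fold is shown only to be at least 1.77. Interferon response genes had the same order: all 6 genes of that list in the table were lowest in C3H10T1/2, between 2.42 and 4.53, intermediate in Venus, between 4.39 and 8.56, and highest in Venus-Mkx, between 8.71 and 12.42. Crabp2 rose in this order too. Both control values of Rbp4 were below the floor, so its order between the controls is not shown. As read, 3 of 7 mesenchymal, 1 of 5 macrophage, 1 of 4 epithelial and 0 of 4 endothelial markers had this order. The share of all genes with this order was not counted, so it cannot be called particular to the genes named here. Whether the interferon response genes have a part in the values of Aldh1a1 was not tested.

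The order of Aldh1a1 was not seen in the other enzymes of the same step. Aldh1a2, the main enzyme of retinoic acid synthesis in the embryo, held 2.47 on every array, below the floor, so its order cannot be read. Aldh1a3 was read by 3 probe sets that disagreed. The brightest had 5.29 in C3H10T1/2, 4.59 in Venus and 3.76 on the Venus-Mkx array, a difference of −0.83 from Venus and −1.53 from C3H10T1/2. The next had 4.65, 4.17 and 3.95 in the same order, and the dimmest stayed between 3.37 and 3.48. The 2 brighter probe sets were thus highest in C3H10T1/2, but all 3 read below the floor in Venus-Mkx, so the size of the difference is not shown.

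Crabp2, which carries retinoic acid to its receptor in the nucleus, had 5.46 in C3H10T1/2, 5.93 in Venus and 7.90 on the Venus-Mkx array. All 3 values were above the floor, with the Venus-Mkx array highest. The difference was 1.97 from Venus, or 3.93-fold, and 2.44 from C3H10T1/2, or 5.44-fold. Crabp1, its relative, held 2.13 on all arrays.

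Cyp26b1, which hydroxylates retinoic acid for removal, had 8.32 in C3H10T1/2, 7.05 in Venus and 5.20 on the Venus-Mkx array. All 3 values were above the floor, and they stepped down from array to array. The difference of Venus-Mkx was −1.86 from Venus, a 3.63-fold lower level, and −3.12 from C3H10T1/2, an 8.70-fold lower level. The Venus array was itself 2.40-fold below C3H10T1/2, with a difference of −1.26.

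Between the controls, Aldh1a1 was thus the member counted as higher in Venus, 1 of 9 against 0.912% of all genes, and Cyp26b1 the member counted as lower, 1 of 9 against 0.341%. Both comparisons use the Venus array, so a deviation of that 1 array would enter both. Rbp4 differed by 0.14 between the controls, Crabp2 by 0.47 and Aldh1a3 by −0.70. With 1 array per group, a difference between cultures and an effect of the vector cannot be told apart.

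**Figure D2:**
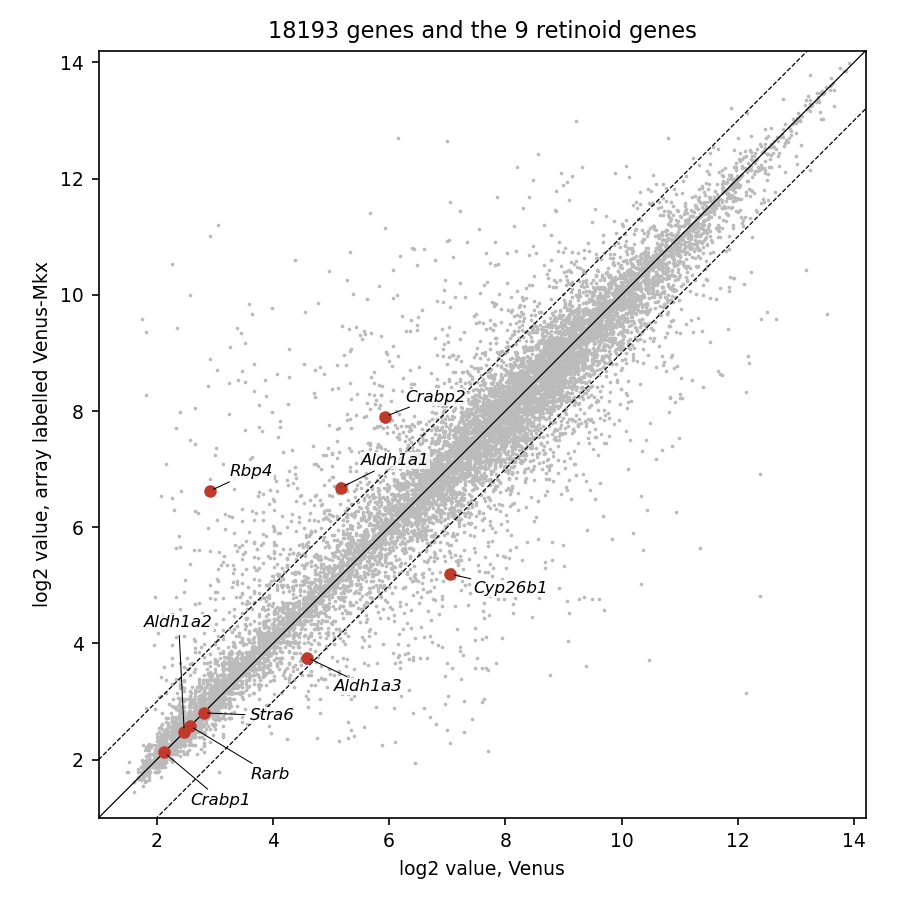
Log2 value on the array labelled Venus-Mkx (vertical axis) against that on the Venus array (horizontal axis) for 18193 genes (grey) and the 9 retinoid genes (red, named), 1 array per group. The solid line marks equal values and dashed lines a 2-fold difference. Rbp4, Crabp2 and Aldh1a1 lie above the upper dashed line and Cyp26b1 below the lower one, and Stra6, Rarb, Aldh1a2 and Crabp1 lie on the line of equal values near the bottom.

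Rarb held 2.58 on every array. That exact value was shared by 1119 probe sets on the C3H10T1/2 array, 1061 on the Venus array and 1015 on the array labelled Venus-Mkx. The values of Stra6, Aldh1a2 and Crabp1 were each shared by between 310 and 681 probe sets per array. Equal values of these 4 members therefore do not show equal expression. Rarb, whose promoter holds the DR5 printed above, was not read above the floor on any array with this 1 probe set. The values of Rbp4, Aldh1a1 and Crabp2 were each held by no other probe set on the C3H10T1/2 array, but the Venus value of Rbp4 was held by 525 probe sets and that of Crabp2 by 52, so their differences from Venus each use a repeated value. The Venus-Mkx value of Aldh1a1 was held by 21 probe sets, and that of Aldh1a3 by 347. For Cyp26b1 the values on all 3 arrays were repeated, held by 13, 19 and 77 probe sets in C3H10T1/2, Venus and Venus-Mkx.

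The wider pathway was described by a list of 62 genes in 6 roles, of which 54 were in the table and 37 reached the floor. Of the 54, 7 were counted as higher than both controls, 13.0% against the 4.19% of all genes. Of these 7, Lipe and Cyp26a1 reached the floor on the Venus-Mkx array alone, so they entered only through the array where they were high. Another 2 of the 54 were lower, 3.70% against 3.28%. The list was chosen with earlier results of these data known, so these shares are no test of the pathway. No listed gene was 2-fold apart between the controls. The median difference of the 54 from Venus was 0.014, against 0.00 over all genes.

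Retinol uptake and binding genes were mostly below the floor. Of 8 in the table, 6 were below the floor on all arrays, among them Lrp2, an endocytic receptor, with 2.91 on every array, and Rbp2, a cellular retinol-binding protein, with at most 3.03. Fabp5, a lipid-binding protein that can carry retinoic acid to the receptor PPARδ, was counted as lower, with 11.74 in C3H10T1/2, 11.85 in Venus and 10.14 on the Venus-Mkx array. Its differences were −1.71 and −1.60 from Venus and C3H10T1/2, and its second probe set gave −1.94 and −1.93. Ppard, the gene of that receptor, held 5.96 on all arrays.

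Among enzymes of retinol, retinal and retinyl esters, 15 of 21 reached the floor, 2 were higher and 1 was lower. Dhrs3, which reduces retinal back to retinol and is induced by retinoic acid in many cells, was the lower one. It had 8.48 in C3H10T1/2, 7.78 in Venus and 5.98 on the Venus-Mkx array, the same order as Cyp26b1, with differences of −1.79 against Venus and −2.49 against C3H10T1/2. Lpl and Lipe, lipases that cleave triglycerides and also retinyl esters, were the higher ones. Lpl had 6.77, 7.03 and 10.95, a difference of 3.92 from Venus, and its other probe set differed by 3.70. Lipe had 3.83 in both controls and 5.39 in Venus-Mkx, at least 2.06-fold higher, but its other probe set stayed below the floor, and over the mean of both it was no longer counted.

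Retinol dehydrogenation enzymes did not reach the 2-fold rule. Adh1, an alcohol dehydrogenase that oxidizes retinol, had 6.53, 5.92 and 7.34, with differences of 1.42 against Venus and 0.82 against C3H10T1/2. Adh5, of the same family, held 10.75 on all arrays. Rdh10, the main retinol dehydrogenase of the embryo and named here after its values were seen, held 7.57 on all 3 arrays with 1 probe set, while the other differed by −0.27 from Venus. Equal values thus occurred above the floor too. They were also held by Ppard and Rara, and by themselves do not show equal expression.

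The degradation enzymes of the Cyp26 family stood on opposite sides. Cyp26a1, the relative of Cyp26b1 that is strongly induced by retinoic acid, had 3.55 in C3H10T1/2, 3.04 in Venus and 6.12 on the Venus-Mkx array. It was above the floor on the last array alone and at least 3.43-fold higher there than in both controls. Each of these genes was read by 1 probe set.

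**Figure D3:**
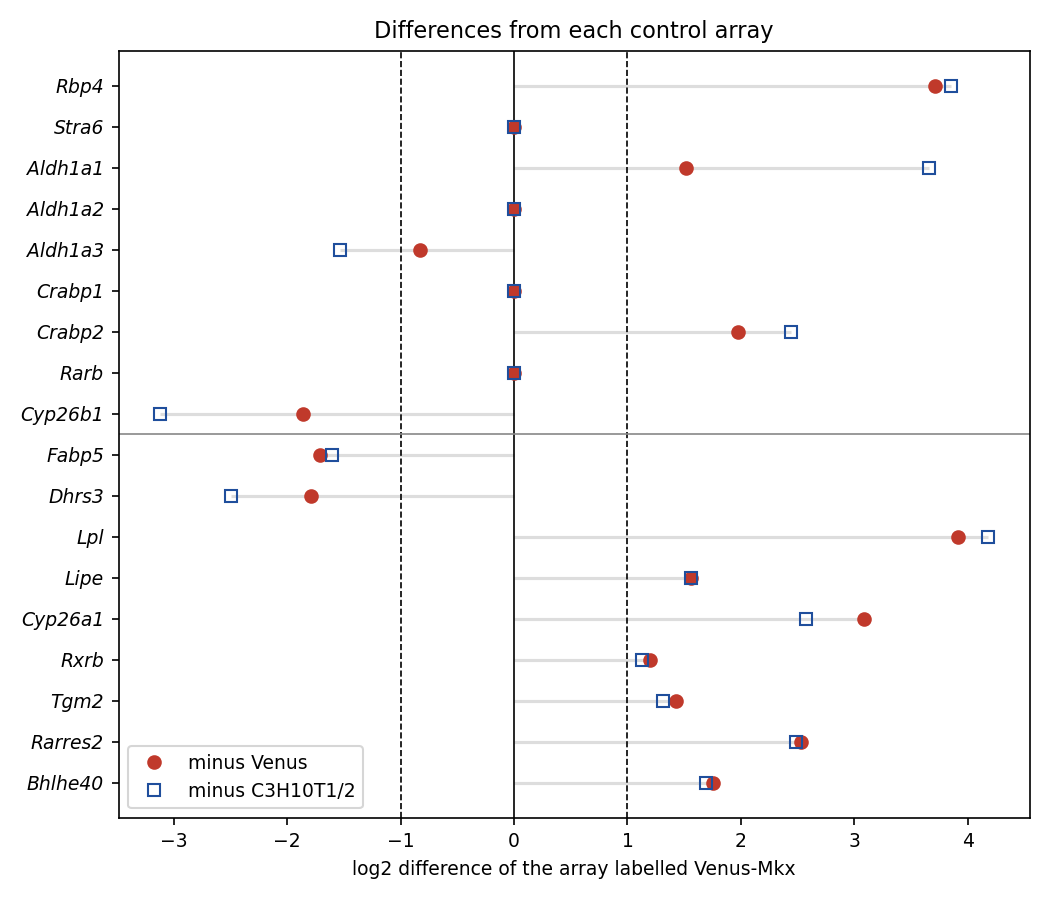
Log2 difference (horizontal axis) of the array labelled Venus-Mkx from Venus (red circles) or C3H10T1/2 (blue open squares) for the 9 retinoid genes, above the grey line, and for the 9 other pathway genes counted as higher or lower, below it. Dashed lines mark a 2-fold difference, and 1 array per group was read. Rbp4 and Lpl lie farthest to the right of 0 as read. The controls of Rbp4, Lipe and Cyp26a1 were below the floor, so their places are not exact. Nor are those of Aldh1a1 against C3H10T1/2 and of Aldh1a3, each with a value below the floor. Cyp26b1, Aldh1a3, Dhrs3 and Fabp5 are negative for both controls, Aldh1a3 without reaching 2-fold from Venus.

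Receptors other than Rarb were above the floor on all arrays, except Rxrg at 3.25. Rxrb, a partner receptor of the retinoic acid receptors, was the only one of 6 counted, with 8.35, 8.29 and 9.48 and differences of 1.20 from Venus and 1.13 from C3H10T1/2. Rara held 5.16 on all arrays. Rarg, named after its values were seen, had 7.43, 7.65 and 7.96. None of 5 coregulator genes was counted: Ep300, a coactivator with acetyltransferase activity, differed by 0.19 from Venus and Ncoa1, a steroid receptor coactivator, by 0.78.

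Of 13 genes known to respond to retinoic acid, 9 reached the floor. Of the 13, 3 were higher, 23.1% against 4.19% of all genes, and none was lower, against 3.28%. This list, too, was chosen with earlier results of these data known, so the share is no test. Each gene was filed under a single role, so these counts leave out other genes described above as responding to retinoic acid. Among those, Dhrs3 was counted as lower, Cyp26a1 as higher, and Rarb was below the floor. Rarres2, which encodes chemerin, had 5.66, 5.61 and 8.15, a difference of 2.53 from Venus. A second probe set of it differed by 3.43, and the third, the only one not marked _s_at (shared by several transcripts), was below the floor on all arrays. Bhlhe40, a transcriptional repressor, had 7.73, 7.66 and 9.42, a difference of 1.76. Tgm2, which encodes transglutaminase 2, had 7.95, 7.83 and 9.26, a difference of 1.43, and 3 further probe sets of 6 differed by 1.36 to 1.58. The other 2 read near or below the floor and differed by 0.20 and 0.23, and over the mean of all 6 Tgm2 was no longer counted. Genes counted in neither direction include Hoxa4, a homeobox gene, with a difference of −0.71 from Venus, and Cdx1, which held 2.95 on all arrays.

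**Figure D4:**
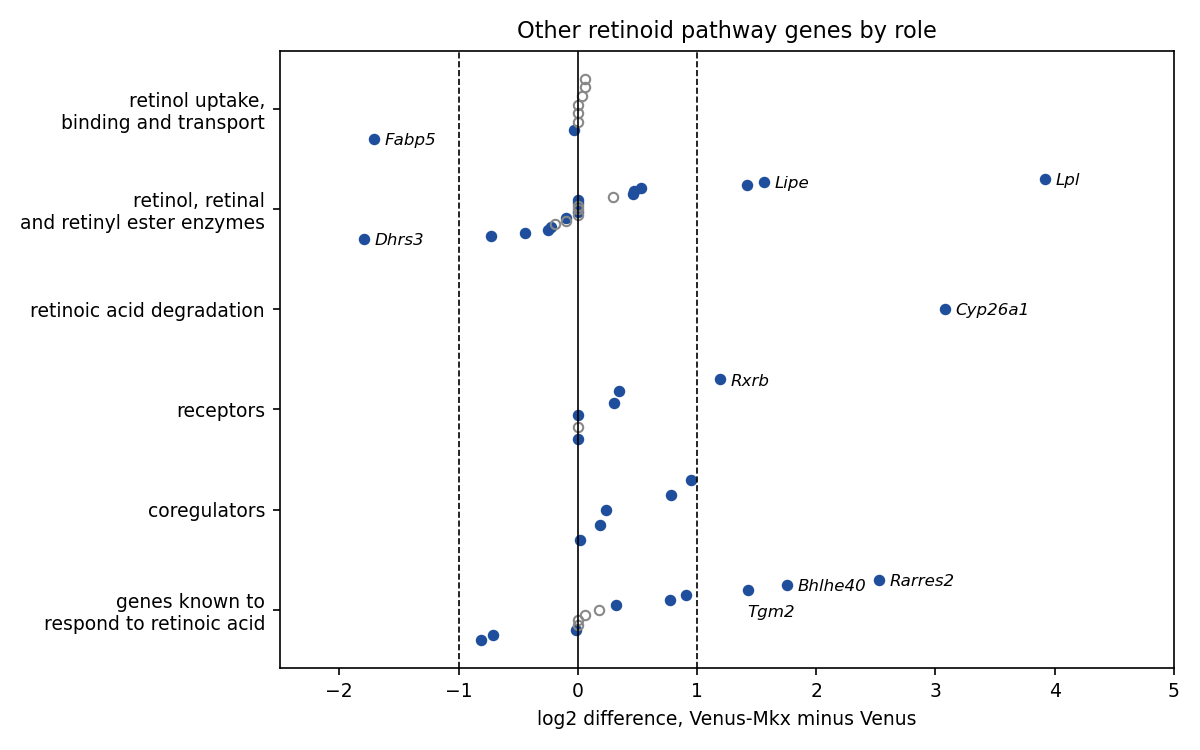
Log2 difference of the array labelled Venus-Mkx from Venus (horizontal axis) for 54 other retinoid pathway genes grouped by role (vertical axis), 1 array per group. Filled points are genes that reached the floor of 4.34, open points genes below it on all arrays, vertical offsets within a role only separate points, and dashed lines mark a 2-fold difference. Named genes were at least 2-fold from both controls, 7 of them to the right and 2 to the left.

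The genes whose pattern was most like that of Rbp4 and Cyp26b1, the members with the largest and smallest difference from the nearer control as read, were found by the distance between log2 values centred over the 3 arrays. For Rbp4 they were Casp4, a caspase of inflammation, Prkg1, a cGMP-dependent kinase, and Fbln1, a matrix protein, at distances of 0.021, 0.076 and 0.11. Their differences from Venus were 3.71, 3.61 and 3.83 as read. Neither control array read Rbp4 above the floor, and none of these distances is therefore exact. The control values of Prkg1 and Fbln1 lay under the floor too. Casp4 stood above it on every array, with 5.16, 5.32 and 9.03 in C3H10T1/2, Venus and Venus-Mkx. With values below the floor set to it, the difference of Rbp4 from Venus was 2.28. For Cyp26b1 the genes most like it were C1galt1, a glycosyltransferase, Pmp2, a myelin lipid-binding protein, and Erg, a transcription factor. Their distances were 0.041, 0.088 and 0.27. Pmp2 and Erg were below the floor on the Venus-Mkx array, so their differences are not exact either. Likeness over 3 arrays is a description only.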

How the data were processed

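RNA of 3 cultures was hybridized to 1 array each. Per the study's methods, labelling used a GeneChip 3′ IVT kit and the summary was MAS 5.0, while the submitters' processing notes name RMA, with no version. The authors deposited log2 probe set values, whose medians are 4.34, 4.34 and 4.39 on the C3H10T1/2, Venus and Venus-Mkx arrays. They were used as deposited. MAS 5.0 gives linear signals, so which summary made the values stays unknown.

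Of 45101 probe sets, 64 controls were left out, 34945 had 1 gene symbol in the platform annotation, 932 several and 9160 none. Symbols were taken through the RefSeq table of GRCm38.p6. Each gene was represented by its probe set of highest mean. With 1 array per group no test was possible, and the number of arrays limits the precision. The members and lists were chosen with earlier results of these data known. Named genes are all members, Mkx, pathway genes counted as higher or lower, up to 2 others per role in alphabetical order, and 3 genes most like each of 2 members. Marker genes that stood apart from their list, Rdh10, Rarg and genes of the families in the closing section were named after their values were seen. Alternatives covered the floor, the probe sets of a gene, scale, control and fold. The counting was tested on simulated data without repeated values, for genes of higher mean level than any member. That test therefore does not show how the counting performs for the members. Python 3.11.15, NumPy 2.4.6, pandas 2.3.3 and matplotlib 3.10.9 were used.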

Additional observations from a re-analysis of the deposited data

How the results depend on the processing

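The members counted as higher in Venus-Mkx numbered 3 under 10 of 12 alternatives, 2 at 3-fold, without Aldh1a1, and 1 with the floor at the 75th percentile, where Crabp2 alone stayed. Most of these settings could not drop a counted member. The 3 members have 1 probe set each, not marked _x_at or _s_at, so the settings on probe sets could not change them. Having no floor, 1.5-fold and the other choices of control are looser than the main rule and can only add genes. The lower members numbered 2, with Aldh1a3 added, at 1.5-fold, against C3H10T1/2 alone and against the mean of both controls, and 1 otherwise. In Venus against C3H10T1/2, the higher members numbered 0 at the 75th percentile floor and 0 with values below the floor set to it, a setting chosen after seeing the data, and the lower ones 2 at 1.5-fold and 0 at 3-fold. The pathway genes counted as higher numbered 12 at 1.5-fold and 4 at 3-fold, and the main 7 under 4 of 12 alternatives. They numbered 5 over the mean of all probe sets, without Lipe and Tgm2, 5 at the 75th percentile floor, without Lipe and Cyp26a1, 6 without probe sets marked _x_at and _s_at, without Rarres2, and 8, 10 and 9 against Venus alone, C3H10T1/2 alone and the mean of both. Those counted as lower numbered 2 under all 12 alternatives. No difference of a counted member from Venus turned its sign. Centring arrays on their medians moved the median difference of all genes from Venus to −0.047. No paired analysis was possible because each group is 1 array with no replicate number, and for the same reason no array could be left out within a group. Signal over background limits the members below the floor, for which no difference can be read.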

Other observations

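The gene families around the retinoid enzymes and carriers, taken by symbol after the members' values were seen, are given here with the background of 4.19% higher and 3.28% lower over all genes. Of 20 aldehyde dehydrogenase genes, 15 reached the floor, and besides Aldh1a1 only Aldh6a1, an enzyme of valine breakdown, was counted as higher, with 8.33, 8.54 and 9.80 on the C3H10T1/2, Venus and Venus-Mkx arrays. These 2 are 10.0% of the family, and none was counted as lower. Aldh1a7, a close relative of Aldh1a1, had 3.80, 6.42 and 5.07 in the same order, highest in Venus, and Aldh3a1 had 4.13, 5.28 and 3.14, so neither lay 2-fold from both controls on the same side. Of 8 alcohol dehydrogenase genes, 3 reached the floor and none was counted. Of 73 cytochrome P450 genes, 14 reached the floor. Cyp26a1, Cyp2f2 and Cyp4v3 were higher, 4.11% of the 73, and Cyp26b1 and Cyp51, an enzyme of cholesterol synthesis, were lower, 2.74%, both near the background. Cyp51 differed by −1.81 from Venus and −1.60 from C3H10T1/2.

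The fatty acid-binding proteins, relatives of Crabp1 and Crabp2, were taken by Fabp symbols, which leaves out the lipid-binding protein Pmp2. They went in both directions, and all 3 of 9 that reached the floor were counted, 1 as higher and 2, with Fabp5, as lower. Fabp4, known from fat cells, had 7.38, 7.04 and 2.28 in that order, at least 6.51-fold lower than both controls. Fabp7, known from brain, had 2.56, 2.47 and 4.88 and is shown only to be at least 1.45-fold higher. Lpl, also known from fat cells, lay on the other side of the controls from Fabp4. These are values of 1 array per group, with no test.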
